A study of Mus musculus with 8 samples.

Results

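The 10 brown fat thermogenic genes described here are Ucp1, Cidea, Dio2, Prdm16, Ppargc1a, Elovl3, Cpt1b, Otop1, Zic1 and Ebf2, followed in RNA sequencing of the whole mouse aorta. They were picked by gene symbol as known brown fat genes, with earlier results of these data known, from a table of 48607 assembled loci, of which 20506 passed a filter on low values and were tested. For 9 of the 10 genes a locus was tested, and Zic1 lay below the filter. The libraries came from mice without apolipoprotein E (ApoE-/-) and from mice without both apolipoprotein E and the natriuretic peptide clearance receptor NPRC (NPRC-/-ApoE-/-), all fed a Western diet rich in fat and cholesterol for 12 weeks. NPRC is encoded by Npr3 and removes natriuretic peptides from the circulation, and the comparison asks what its loss changes in the aorta of mice on this diet. The NPRC-/- line was made on a C57BL/6 background with CRISPR/Cas9 as a frameshift in exon 1 of Npr3 in every tissue, and ApoE is missing from the controls as well. By title, 5 libraries were ApoE-/- and 3 were NPRC-/-ApoE-/-.

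The genotype entered separately for each library named the other genotype for 4 of the 8, namely those titled ApoE-/- 4 and 5 and NPRC-/-ApoE-/- 1 and 2. The groups here follow the titles, and the values of the brown fat genes and the list counts are also given by genotype entry. Npr3 itself did not separate the groups, with 0.62 to 1.69 FPKM (fragments mapped to a locus, scaled to transcript length and library size) across the ApoE-/- titles and 1.13 to 1.39 FPKM across the titles NPRC-/-ApoE-/-. Its log2 fold change was 0.10 (SE 0.28, adjusted p = 0.90, edgeR), and 0.16 (SE 0.28) by genotype entry, so that its RNA level does not tell which label applies, and a frameshift need not lower the RNA. Total counts per library were between 62969165 and 86693276.

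Brown adipocytes burn fat to make heat. Noradrenaline from sympathetic nerves acts on beta-adrenergic receptors and, through cyclic AMP and protein kinase A, frees fatty acids and turns on Ucp1, whose protein lets protons leak back across the inner mitochondrial membrane. Natriuretic peptides can feed the same program through the receptor NPRA (Npr1), cyclic GMP and p38 MAP kinase. In mice the fat around the thoracic aorta resembles brown fat, so an aorta collected with its surrounding tissue can carry brown adipocytes. In such bulk tissue, fewer brown adipocytes and less RNA per brown adipocyte cannot be told apart.

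Promoter windows from RefSeq (GRCm38.p6) were found for 6 of the 10 genes, namely Prdm16, Otop1, Ppargc1a, Ucp1, Zic1 and Dio2. Of these, 4 are printed from 250 bases before to 50 bases after the start annotated in RefSeq, 5′ to 3′ on the strand of the gene. That start need not be the start of the measured locus. The Dio2 window lies wholly upstream of its locus, which begins at 90738438 on the minus strand. The Otop1 window lies inside its locus, which begins at 38275972. Ucp1, Otop1 and Ppargc1a are shown because all 3 were lowest in the same library, and Dio2 because its level did not follow that of Ucp1. Capitals mark exact matches to a motif searched on both strands.
Ucp1 (chr8:83290098-83290397, plus strand): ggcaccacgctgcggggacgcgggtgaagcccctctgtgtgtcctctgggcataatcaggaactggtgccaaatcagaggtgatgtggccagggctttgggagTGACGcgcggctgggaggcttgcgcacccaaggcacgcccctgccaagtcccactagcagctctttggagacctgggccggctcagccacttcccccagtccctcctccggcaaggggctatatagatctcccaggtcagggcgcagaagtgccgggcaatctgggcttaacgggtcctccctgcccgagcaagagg
Otop1 (chr5:38277154-38277453, plus strand): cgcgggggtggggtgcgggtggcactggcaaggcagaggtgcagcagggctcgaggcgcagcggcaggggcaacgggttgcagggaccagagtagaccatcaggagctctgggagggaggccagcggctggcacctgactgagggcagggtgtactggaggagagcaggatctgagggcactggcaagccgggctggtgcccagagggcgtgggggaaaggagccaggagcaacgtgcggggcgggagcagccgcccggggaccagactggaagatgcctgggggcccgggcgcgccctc
Ppargc1a (chr5:51567676-51567975, minus strand): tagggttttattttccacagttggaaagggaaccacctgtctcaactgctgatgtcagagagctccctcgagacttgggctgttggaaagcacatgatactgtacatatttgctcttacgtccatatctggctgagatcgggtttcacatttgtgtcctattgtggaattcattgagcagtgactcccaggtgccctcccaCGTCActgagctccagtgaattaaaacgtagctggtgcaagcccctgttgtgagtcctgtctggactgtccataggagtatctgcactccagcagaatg
Dio2 (chr12:90738989-90739288, minus strand): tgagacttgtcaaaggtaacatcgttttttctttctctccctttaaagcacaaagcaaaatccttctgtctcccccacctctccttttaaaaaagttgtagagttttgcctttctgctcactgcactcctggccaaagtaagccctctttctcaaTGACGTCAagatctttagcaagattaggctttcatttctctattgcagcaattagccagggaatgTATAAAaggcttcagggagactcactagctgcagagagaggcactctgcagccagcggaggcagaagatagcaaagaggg

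The capitals in the Ucp1 window are the short core of the cyclic AMP response element, TGACG, beginning at -147 from the start. The Ppargc1a window holds the same short core on the other strand at -49. Dio2 was the only one of the 6 genes whose window held the full element TGACGTCA, at -95, which contains the short core on each strand, and it also held the TATA box TATAAA at -30. The Otop1 window has no capitals because none of the motifs matched there. Among all 32851 windows of the same length, 1.79% held the full element, 20.8% the short core and 13.6% the TATA box. The other motifs searched matched in none of the 6 genes. They were the nuclear receptor repeat DR1 (AGGTCA repeated with any base between, in 0.0396% of all windows), the EBF motif (TCCC and GGGA with any 2 bases between, 0.904%) and the estrogen-related receptor motif (TCAAGGTCA, 0.423%). A match describes letters only, and the regions that drive Ucp1 far upstream lie outside these windows.

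Ucp1, the uncoupling protein that defines brown fat, was among the most abundant RNAs of the aorta. In ApoE-/- 1 to 5 it measured 250.4, 309, 71.8, 142 and 319 FPKM, and in NPRC-/-ApoE-/- 1 to 3 it measured 331, 343 and 189 FPKM. ApoE-/- 3 was the lowest and ApoE-/- 4 the next lowest, NPRC-/-ApoE-/- 2 was the highest, and the groups overlapped. Its rank among the 20506 tested loci by FPKM ranged from 23 in the library where it ranked best to 174 in the library where it ranked worst. The highest library held 4.78 times as much as the lowest. The group means were 219 ± 108 FPKM (SD, n = 5) and 288 ± 85.5 FPKM (SD, n = 3), a log2 fold change of 0.44 (SE 0.41, 95% interval -0.49 to 1.37, adjusted p = 0.65, edgeR quasi-likelihood test with Benjamini-Hochberg adjustment). An exact two-sided permutation test of its log2 CPM (counts scaled to library size) gave p = 0.357. By genotype entry the log2 fold change was -0.24 (SE 0.45). The interval by title spans both no change and a doubling, so neither can be separated from the other with these libraries.

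**Figure D1:**
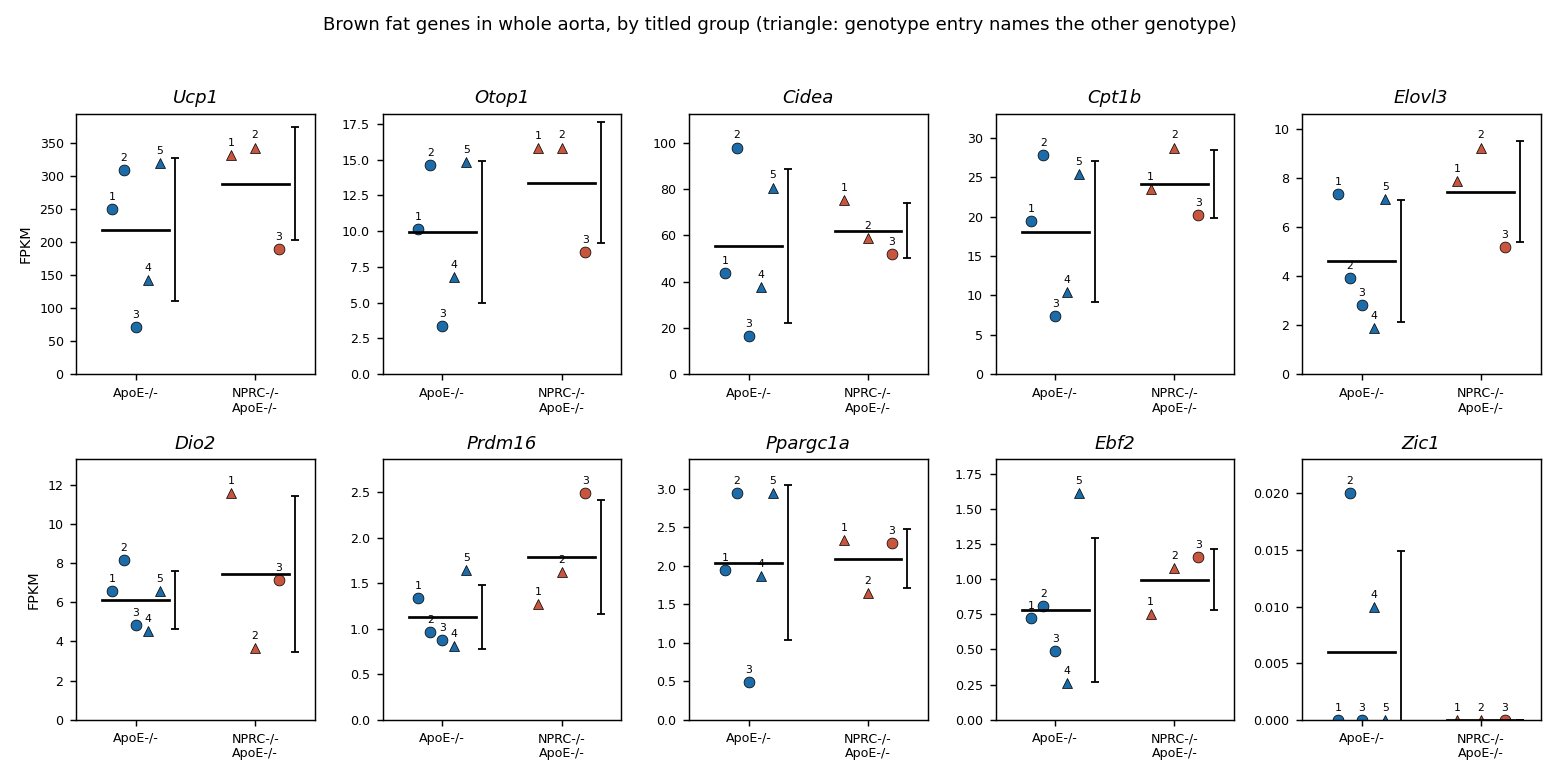
FPKM of the 10 brown fat genes in each library (y axes, from 0), by titled group (x axes). Numbers are the replicate numbers of the titles, triangles mark libraries whose genotype entry names the other genotype, lines are group means and bars are ± 1 SD (cut at 0 for Zic1); Prdm16, Ppargc1a and Ebf2 are shown at the locus of their annotated transcripts. ApoE-/- 3, at 71.8 FPKM for Ucp1, is the lowest library for Ucp1, Otop1, Cidea, Cpt1b and Ppargc1a, and the groups overlap in every panel.

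Otop1 codes for otopetrin 1, a proton channel found in brown fat and in the inner ear. Levels of Otop1 were 10.2, 14.6, 3.33, 6.78 and 14.8 FPKM in ApoE-/- 1 to 5, against 15.8, 15.9 and 8.55 FPKM in NPRC-/-ApoE-/- 1 to 3. It had the same 2 lowest libraries as Ucp1, with overlap between the groups. The log2 fold change was 0.47 (SE 0.41, 95% interval -0.46 to 1.40, adjusted p = 0.63) by title and -0.23 by genotype entry.

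Cidea codes for a lipid droplet protein and is a classical marker of brown fat. It measured 43.5, 98.0, 16.5, 37.8 and 80.7 FPKM in ApoE-/- 1 to 5 and 75.1, 58.9 and 52.0 FPKM in NPRC-/-ApoE-/- 1 to 3. Both the highest library, ApoE-/- 2, and the lowest, ApoE-/- 3, were in the ApoE-/- group. By title the log2 fold change was 0.21 (SE 0.45, 95% interval -0.81 to 1.23, adjusted p = 0.86), and by genotype entry it was -0.01. Without ApoE-/- 3 it was -0.0033 by title.

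The muscle-type carnitine palmitoyltransferase Cpt1b carries fatty acids into mitochondria. Its locus in the table was named for Cpt1b, Gm44502 and Chkb together, so reads from these neighbours could not be separated. The locus held 19.5, 27.8, 7.34, 10.5 and 25.4 FPKM in ApoE-/- 1 to 5, compared with 23.6, 28.8 and 20.2 FPKM in NPRC-/-ApoE-/- 1 to 3. ApoE-/- 3 and 4 lay below every other library, and the other 6 libraries covered 19.5 to 28.8 FPKM. The log2 fold change was 0.46 (SE 0.37, 95% interval -0.37 to 1.30, adjusted p = 0.59) by title and -0.17 by genotype entry.

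Elovl3 elongates very long chain fatty acids and is strongly cold-induced in brown fat. Its levels were 7.34, 3.92, 2.80, 1.89 and 7.12 FPKM in ApoE-/- 1 to 5 and 7.88, 9.23 and 5.19 FPKM in NPRC-/-ApoE-/- 1 to 3. The lowest library was ApoE-/- 4 and the highest NPRC-/-ApoE-/- 2, and the groups overlapped. Its log2 fold change of 0.73 by title was the largest of the 9 genes at the loci with most counts, but its interval reached from -0.17 to 1.64 (SE 0.40, adjusted p = 0.44). By genotype entry it was -0.38 (SE 0.47).

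Dio2, the deiodinase that makes active thyroid hormone inside brown adipocytes, had an order of libraries of its own. It measured 6.57, 8.18, 4.85, 4.54 and 6.57 FPKM in ApoE-/- 1 to 5, and in NPRC-/-ApoE-/- 1 to 3 it measured 11.6, 3.65 and 7.14 FPKM. The highest and the lowest library both belonged to the NPRC-/-ApoE-/- group, and NPRC-/-ApoE-/- 2, highest for Ucp1, was lowest for Dio2. The log2 fold change was 0.31 (SE 0.32, 95% interval -0.42 to 1.04, adjusted p = 0.69), and -0.16 by genotype entry. Without NPRC-/-ApoE-/- 1 it was -0.12 by title.

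The genes named above as effectors were each read at the locus of their annotated transcripts, but for the 3 regulators Prdm16, Ppargc1a and Ebf2 the locus with most counts was another. That locus covered none of the exons of the gene in the GENCODE M21 annotation of GRCm38. For Prdm16 it lay on the opposite strand of chromosome 4 (154567627 to 154636671) and was also named for Gm13134. For Ppargc1a it lay inside the gene on the same strand of chromosome 5 (51515393 to 51543296). For Ebf2 it lay on the opposite strand of chromosome 14 (67251205 to 67274860). Both loci are therefore given, first that of the transcripts.

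Prdm16, a cofactor that directs precursors to the brown fat fate, measured 1.34, 0.97, 0.88, 0.81 and 1.65 FPKM in ApoE-/- 1 to 5 at its 12 annotated transcripts. In NPRC-/-ApoE-/- 1 to 3 it measured 1.27, 1.62 and 2.49 FPKM. NPRC-/-ApoE-/- 3 was above all others, while NPRC-/-ApoE-/- 1 and 2 lay within the ApoE-/- range. The log2 fold change of 0.71 (SE 0.27, 95% interval 0.10 to 1.33) had an unadjusted p of 0.028 and an adjusted p of 0.32 with edgeR, and 13.6% of all tested loci had an unadjusted p under 0.05. When single libraries were left out it ranged from 0.37, without NPRC-/-ApoE-/- 3, to 0.93. The exact permutation p was 0.107, and by genotype entry the log2 fold change was 0.48 (SE 0.33, adjusted p = 1.0). At the locus with most counts the levels were 3.37, 3.12, 1.71, 2.65 and 2.25 FPKM against 2.47, 6.67 and 2.89 FPKM. There a different library, NPRC-/-ApoE-/- 2, stood highest, and the log2 fold change of 0.64 (SE 0.33, adjusted p = 0.42) turned to -0.37 by genotype entry.

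Ppargc1a codes for PGC-1alpha, the coactivator of mitochondrial biogenesis and of Ucp1 itself. The locus of its transcripts, shared with Gm42615, held 1.95, 2.94, 0.49, 1.87 and 2.94 FPKM in ApoE-/- 1 to 5, compared with 2.33, 1.65 and 2.30 FPKM in NPRC-/-ApoE-/- 1 to 3. ApoE-/- 3 stood far below the other 7 libraries, which lay between 1.65 and 2.94 FPKM. The log2 fold change was 0.09 (SE 0.45, 95% interval -0.92 to 1.11, adjusted p = 0.95) and 0.38 by genotype entry, but -0.14 by title without ApoE-/- 3. The intronic locus with most counts held 1.95, 2.48, 0.55, 0.60 and 1.61 FPKM against 1.40, 1.82 and 3.28 FPKM. At that locus NPRC-/-ApoE-/- 3 was highest, with a log2 fold change of 0.67 (SE 0.50, adjusted p = 0.57), and 0.22 by genotype entry.

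Ebf2, a transcription factor that marks brown fat precursors and opens brown fat enhancers, was the lowest of the tested genes. At its transcripts it measured 0.72, 0.81, 0.49, 0.26 and 1.61 FPKM in ApoE-/- 1 to 5 and 0.75, 1.08 and 1.16 FPKM in NPRC-/-ApoE-/- 1 to 3. ApoE-/- 5 was highest and ApoE-/- 4 lowest, so the ApoE-/- range enclosed the other group. The log2 fold change was 0.42 (SE 0.46, 95% interval -0.62 to 1.45, adjusted p = 0.71) and 0.40 by genotype entry. The locus on the opposite strand ranged from 0.46 to 3.85 FPKM in the ApoE-/- group and from 1.82 to 3.04 FPKM in the other group, with a log2 fold change of 0.44 (SE 0.59, adjusted p = 0.77), and 0.16 by genotype entry.

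**Figure D2:**
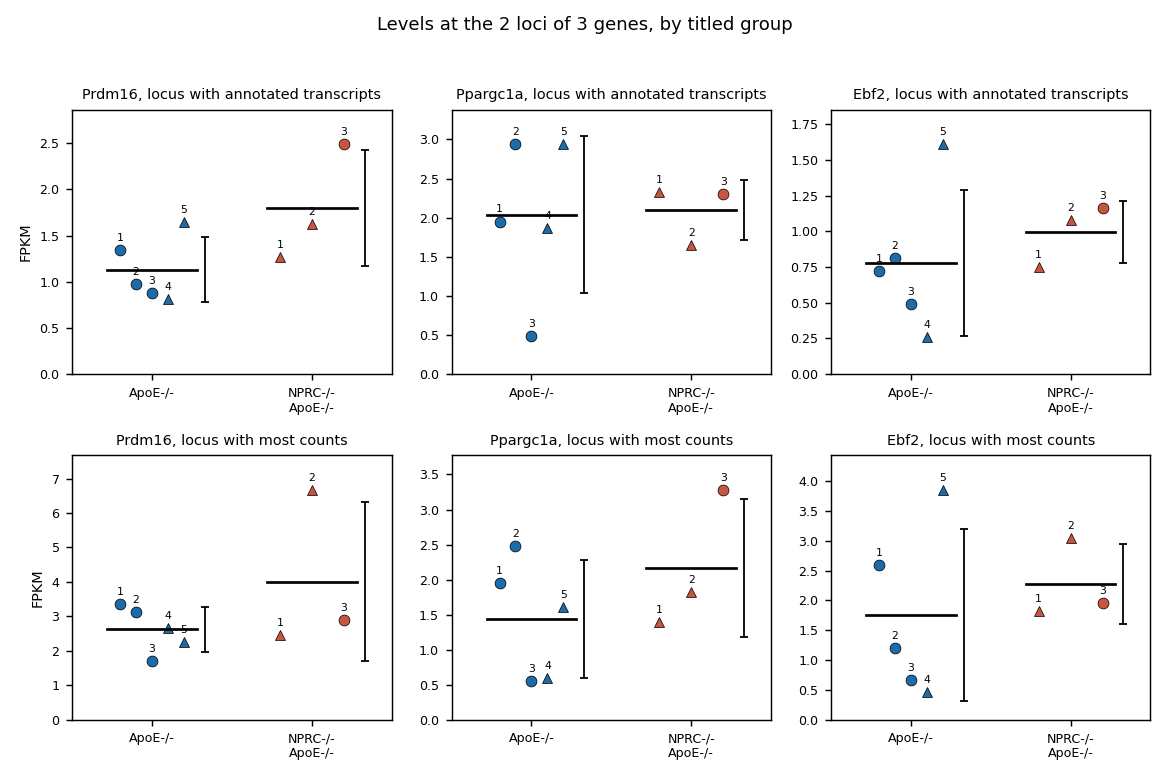
FPKM of Prdm16, Ppargc1a and Ebf2 (y axes, from 0) by titled group (x axes), at the locus of the annotated transcripts (upper row) and at the locus with most counts (lower row). Points are libraries numbered as in their titles, triangles mark conflicting labels, lines are means and bars ± 1 SD. The highest Prdm16 library is NPRC-/-ApoE-/- 3 in the upper panel, at 2.49 FPKM, and NPRC-/-ApoE-/- 2 in the lower one, at 6.67 FPKM.

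Across the 8 libraries the levels at the 2 loci of a gene followed each other to different degrees. Pearson's r of log2 CPM was 0.89 for Ebf2, 0.65 for Ppargc1a and 0.31 for Prdm16, with Spearman's rho of 0.79, 0.52 and 0.43. These are descriptions over libraries that share tissue and depth. Whether the counting used strand is not given in the sources used here, so reads from a gene and from an antisense transcript may not be separable.

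Zic1, a transcription factor of classical brown fat depots such as that between the shoulder blades, was barely detected. It had 12 counts in ApoE-/- 2, 8 counts in ApoE-/- 4 and 0 counts in the other 6 libraries, including all those titled NPRC-/-ApoE-/-. A count of 0 allows up to 3 counts, or 0.0346 to 0.0476 CPM per library, from counting error alone. No fold change is given, as Zic1 lay below the filter and its counts were too few to show a difference. Of the 10 brown fat genes, Zic1 alone was missing from the tested loci. That the other 9 passed the filter does not show which cells their RNA came from. Among 22 further transcription factors and cofactors of brown fat 18 were tested. Zic2 (mean 0.04 FPKM) and Lhx8 (0.12 FPKM) were among those below the filter.

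Set side by side on the FPKM scale, which accounts for transcript length, the mean levels over 8 libraries fell from Ucp1 (244) through Cidea (57.8), Cpt1b (20.4), Otop1 (11.2), Dio2 (6.63) and Elovl3 (5.67) to Ppargc1a (2.06), Prdm16 (1.38) and Ebf2 (0.86) at their transcripts. Dio2 and Elovl3 are neighbours whose ranges overlapped, at 3.65 to 11.6 and 1.89 to 9.23 FPKM, as did those of Ppargc1a and Prdm16. On average the effectors thus stood above the regulators.

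By title, 0 of the 9 tested genes met the criterion used for changed loci, against 3.47% of all tested loci (1.08% higher and 2.39% lower). The criterion asks for a change of more than 2-fold in either direction and for an unadjusted p under 0.05. At the loci with most counts 0 of 9 also had an unadjusted p under 0.05, and at the transcript loci 1 of 9 did, which was Prdm16. With edgeR 0 loci in the whole table had an adjusted p under 0.05, though 2797 had an unadjusted one. DESeq2 gave 650 loci with an adjusted p under 0.05, and limma gave 2 on log2(FPKM + 1) and 0 on log2(FPKM + 0.1), with none of the 9 genes among them. Loci whose titled groups did not overlap made up 7.41% of the table, and none of the 9 genes was among them at either locus.

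All 9 log2 fold changes by title were above 0, with a median of 0.46 at the loci with most counts, whereas 49.1% of all tested loci were above 0 and their median was -0.006. By genotype entry 2 were above 0 and 7 below (49% of all loci were above 0), with a median of -0.17, and 0 of 9 met the criterion (0.463% of all tested loci). Among the 4 libraries with agreeing labels, which are 3 against 1, 7 were above 0 and 2 below, with a median of 0.22. Of all loci, 46.9% were above 0 there, 8.85% met the criterion and 3.36% met it as higher, and the lone NPRC-/-ApoE-/- library is assumed to vary like the others. There Prdm16 at its transcripts was 2.48-fold higher (log2 1.31, SE 0.26, unadjusted p = 0.0027, adjusted p = 0.21, edgeR), and it was the only one of the 9 transcript loci to meet the criterion. The direction of the 9 genes therefore depended on which label was used, except for Prdm16, Ppargc1a and Ebf2 at their transcripts, whose log2 fold changes were above 0 under all 3 groupings. The genes varied together over the libraries, so that 9 like signs are not 9 separate observations.

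**Figure D3:**
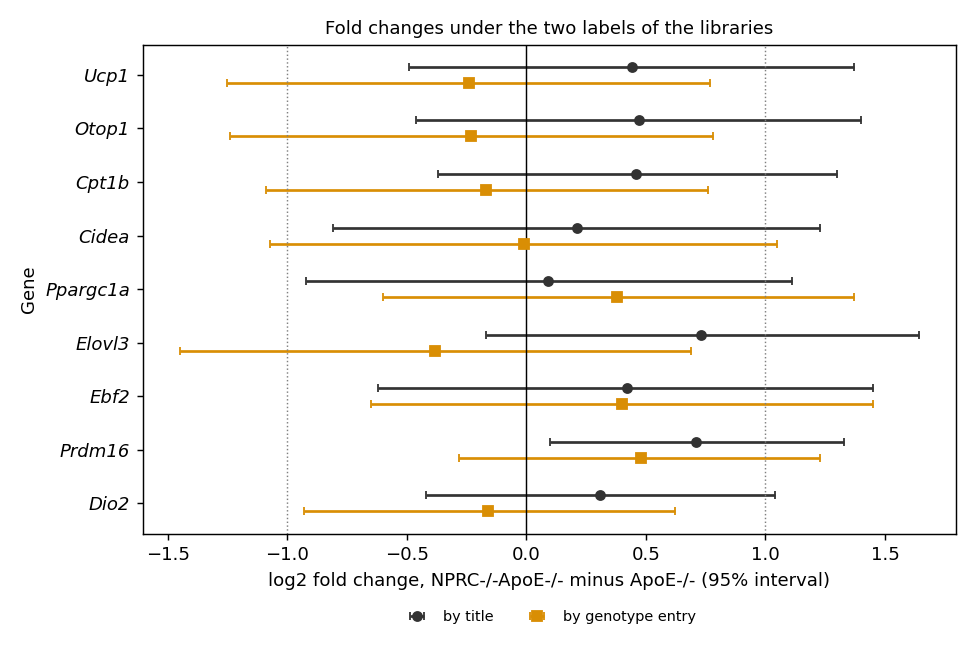
Log2 fold change of each brown fat gene, NPRC-/-ApoE-/- minus ApoE-/- (x axis), by title (circles) and by genotype entry (squares), with 95% intervals from the edgeR fit and dotted lines at a fold change of 2 and of 0.5. Ucp1 is at 0.44 by title and -0.24 by genotype entry; Prdm16, Ppargc1a and Ebf2, shown at their transcripts, stay above 0.

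The spread among libraries was wider than for most of the table. The SD of log2 CPM over the 8 libraries was 0.73 for Ucp1, 0.76 for Cidea, 0.73 for Otop1, 0.66 for Cpt1b and 0.76 for Elovl3, compared with a median of 0.34 over all tested loci. Prdm16 at 0.53 and Dio2 at 0.50 varied less. ApoE-/- 3 lay below the mean of the gene for 9 of the 9 tested genes, with a median deviation of -1.25 on the log2 scale, and ApoE-/- 4 for 8 of 9, with a median deviation of -0.56. ApoE-/- 3 and 4 were lowest or second lowest for 7 and 8 of the 9 genes. Both are titled ApoE-/-, but the genotype entry of ApoE-/- 4 is NPRC-/-ApoE-/-, so moving that library between groups moves low values with it. Without ApoE-/- 3 the median log2 fold change of the 9 genes by title was 0.27 and that of Ucp1 0.23 (SE 0.29), and without ApoE-/- 4 they were 0.34 and 0.34 (SE 0.44).

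**Figure D4:**
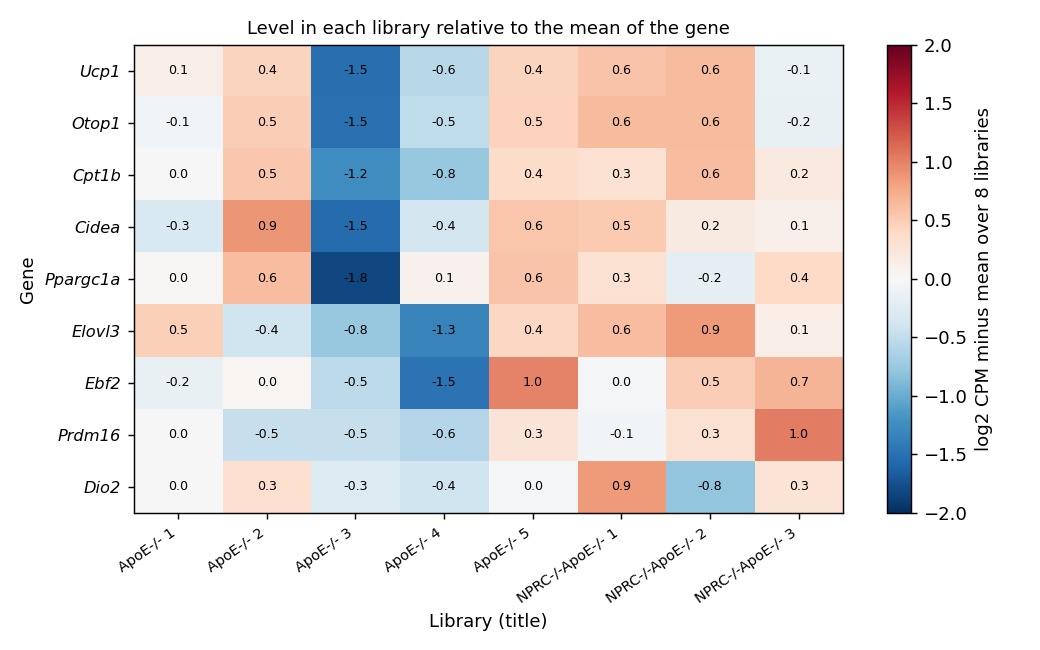
Log2 CPM of each brown fat gene in each library (columns, by title) minus the mean of the gene over the 8 libraries (colour and printed value). Rows are genes, with Prdm16, Ppargc1a and Ebf2 at their transcripts. ApoE-/- 3 is below the mean for all 9 genes and ApoE-/- 4 for 8 of them, and the lowest value for Dio2 is in NPRC-/-ApoE-/- 2.

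The likeness of each gene to Ucp1 was described by Pearson's r of log2 CPM over the 8 libraries. It was 0.99 for Otop1, 0.96 for Cpt1b, 0.91 for Cidea, 0.81 for Ppargc1a, 0.72 for Elovl3, 0.57 for Ebf2, 0.35 for Prdm16 and 0.28 for Dio2, the regulators being taken at their transcripts. Spearman's rho was 0.98 for Otop1, 0.88 for Cpt1b, 0.86 for Elovl3 and 0.74 for Cidea, and 0.24 for Ppargc1a. Without ApoE-/- 3 and 4, the libraries farthest from the median of Ucp1, r over 6 libraries was still 0.98 for Otop1 and 0.73 for Cpt1b, but 0.54 for Cidea, 0.34 for Elovl3, -0.09 for Ebf2, -0.13 for Ppargc1a, -0.17 for Dio2 and -0.59 for Prdm16. Without those libraries the r of Ppargc1a, Ebf2, Prdm16 and Dio2 with Ucp1 was no longer positive, those of Cidea and Elovl3 were smaller, and that of Otop1 was nearly the same. Because the libraries were picked by Ucp1 itself, leaving them out narrows its range, which tends to lower r. What the correlations rest on cannot be told from 6 libraries.

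Among 19910 other named loci none had a higher r with Ucp1 than Otop1 (0.995), and 192 had an r of at least 0.9. The 10 nearest of them were Kctd21, 1700021F05Rik, Esrrg, Gm45909, Afg3l2, Gpam, Mrs2, A530016L24Rik, Ddhd2 and Adhfe1, with r from 0.972 to 0.984. The loci named for Kctd21 and Esrrg held no annotated transcript. Gpam, a mitochondrial enzyme of triglyceride synthesis, ranged from 2.73 to 9.55 FPKM and had an r of 0.79 without ApoE-/- 3 and 4. Mrs2, a magnesium channel of mitochondria, ranged from 1.92 to 4.56 FPKM, and Afg3l2, a mitochondrial protease, from 5.00 to 7.98 FPKM. By Spearman's rho, 2 of the 10, 1700021F05Rik and Gm45909, were again among the nearest 10.

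Many other effector genes of brown fat followed Ucp1 over the 8 libraries. Of 23 listed genes 22 had a locus and 19 were tested, and their median r with Ucp1 was 0.86. Others did so less or not at all, as r was 0.57 for Acot11, 0.34 for S100b and -0.40 for Epsti1. Values of r without ApoE-/- 3 and 4 are not given for these genes. Their summed FPKM reached from 133 (ApoE-/- 3) to 467 within the ApoE-/- titles, and from 297 to 420.0 within the NPRC-/-ApoE-/- titles. Cox8b, a subunit of cytochrome c oxidase, measured 19.5 to 137 FPKM in the first group and 72.3 to 110.0 FPKM in the second (log2 fold change 0.34, SE 0.50). The fatty acid binding protein Fabp3 had a log2 fold change of 0.54 (SE 0.51) and the acyl-CoA dehydrogenase Acadm one of 0.22 (SE 0.34). By the criterion 0 were higher and 1 was lower, against 1.08% and 2.39% of all tested loci. The lower gene was Epsti1, at 2.27 to 4.67 FPKM against 0.59 to 1.62 FPKM (log2 fold change -1.66, SE 0.39, adjusted p = 0.24, and -0.26 by genotype entry). Epsti1 needed ApoE-/- titles to pass the filter, as its median in the other group was 0.74 FPKM. The share over all loci is therefore not a like background for it. The median log2 fold change of the 19 was 0.29, and -0.02 by genotype entry.

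The transcription factors and cofactors of brown fat gave 18 tested genes, 0 of which met the criterion, with a median log2 fold change of 0.08 and of 0.00 by genotype entry. The most abundant were Cebpa (30.4 FPKM on average, log2 fold change -0.60, SE 0.27), the retinoid receptor Rxra (12.4 FPKM, -0.07, SE 0.13) and the thyroid hormone receptor Thra (7.90 FPKM, 0.31, SE 0.18). Of 12 genes for heat production without UCP1, 11 were tested and 1 was lower by the criterion, against 2.39% of all tested loci. That was Gatm, of creatine synthesis, at 1.78 to 4.87 FPKM against 0.60 to 1.93 FPKM (log2 fold change -1.71, SE 0.50, adjusted p = 0.27, and -0.18 by genotype entry). Gatm too needed ApoE-/- titles to pass the filter, with a median of 0.77 FPKM in the other group, so that share is not a like background. Atp2a2, the calcium pump SERCA2, had a log2 fold change of 0.32 (SE 0.17), and the adenine nucleotide translocases Slc25a5 and Slc25a4 had -0.36 (SE 0.23) and -0.10 (SE 0.16).

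Among the receptors and second messengers that drive thermogenesis 18 genes were tested and 0 met the criterion. Npr1, the receptor through which natriuretic peptides raise cyclic GMP, lay between 10.1 and 15.8 FPKM in the ApoE-/- group and between 17.3 and 22.4 FPKM in the NPRC-/-ApoE-/- group, without overlap. Its log2 fold change of 0.62 (SE 0.16, unadjusted p = 0.0036, adjusted p = 0.26, edgeR) stayed under a doubling, and by genotype entry it was 0.04 (SE 0.27). Of all tested loci, 7.41% had titled groups that did not overlap in log2 CPM, and 6.51% were higher with an unadjusted p under 0.05. The stimulatory G protein Gnas and the catalytic subunit of protein kinase A, Prkaca, had log2 fold changes of 0.19 (SE 0.21) and 0.02 (SE 0.15).

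Genes of sympathetic neurons, whose noradrenaline drives brown fat, were lower by title. Of 8 listed genes 5 were tested, and 4 met the criterion as lower, against 2.39% of all tested loci. Th, Dbh and Slc6a2 did not exceed 0.37 FPKM in any library titled NPRC-/-ApoE-/-. They passed the filter of 1 FPKM in 3 or more libraries only through ApoE-/- titles. The share over all tested loci is therefore not a like background for them. Th, the first enzyme of noradrenaline synthesis, measured 0.60 to 5.50 FPKM against 0 to 0.06 FPKM (log2 fold change -5.89, SE 1.18, adjusted p = 0.22). Dbh, the enzyme that makes noradrenaline from dopamine, measured 0.80 to 8.69 FPKM against 0.02 to 0.13 FPKM (-5.73, SE 1.05, adjusted p = 0.19). The noradrenaline transporter Slc6a2 had a log2 fold change of -3.83 (SE 0.71) and neuropeptide Y, Npy, one of -2.85 (SE 0.92). All 4 had groups that did not overlap (7.41% of all tested loci), but as they had been picked by the criterion that share is no like background either. The summed list was 8.44 to 44.5 FPKM against 0.99 to 3.21 FPKM. The highest sum was in ApoE-/- 3, the library lowest in Ucp1, and the next highest was 17.2 FPKM in ApoE-/- 1. Over the 8 libraries the median r of the tested genes with Ucp1 was -0.67. How far this r rests on ApoE-/- 3 was not tested, as no r without that library is given here. By genotype entry 0 of the 5 met the criterion, with Th at -2.09 (SE 1.66) and Dbh at -1.74 (SE 1.62). The part of these genes in the values of the brown fat genes was not tested.

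Markers of other tissues were read in the same way. Many white or general adipocyte genes followed Ucp1 as well, with a median r of 0.80 over 16 tested genes, a median log2 fold change of 0.03 and 0 genes past the criterion. Others did not, as r was 0.00 for Retn, 0.16 for Cfd and 0.19 for Nnat, against 0.96 for Dgat2 and 0.95 for Plin1. Plin4 shared its locus with Plin5 of the effector list. Values of r without ApoE-/- 3 and 4 are not given for this list. Their summed FPKM reached from 229 (ApoE-/- 3) to 885 in the ApoE-/- group and from 358 to 639.5 in the other group. Car3, Dgat2 and Adipoq, the most abundant, had log2 fold changes of -0.57 (SE 0.46), 0.15 (SE 0.51) and -0.27 (SE 0.49).

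Beige adipocyte markers gave 6 tested genes and 1 lower by the criterion, against 2.39% of all tested loci. The lower gene was Tmem26, at 1.00 to 1.83 FPKM against 0.48 to 0.80 FPKM (log2 fold change -1.01, SE 0.28, adjusted p = 0.26, and -0.16 by genotype entry). Tmem26 passed the filter only through ApoE-/- titles. Of the 6, 1 was above 0, the median was -0.72 (-0.19 by genotype entry), and 3 were lower with an unadjusted p under 0.05, against 7.13% of all tested loci. As Tmem26 is one of the 3, the shares over all loci are not a like background here. Slc27a1, Ear2 and Sp100 had log2 fold changes of -0.50 (SE 0.28), -0.79 (SE 0.30) and -0.64 (SE 0.19). Fibroblast and progenitor genes gave 9 tested and 1 lower by the criterion, beside the same 2.39%. That gene, Dpp4, had a log2 fold change of -1.02 (SE 0.23, adjusted p = 0.22, and -0.24 by genotype entry). Dpp4 too passed the filter only through ApoE-/- titles. Of the 9, 0 were above 0, the median was -0.70 (-0.10 by genotype entry), and 4 were lower with an unadjusted p under 0.05. Dpp4 is one of the 4, so those shares are no like background for this list either. Lum, Dcn and Pdgfrb had -1.21 (SE 0.56), -0.84 (SE 0.30) and -0.02 (SE 0.18).

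All 10 smooth muscle genes had log2 fold changes above 0 by title, with a median of 0.67, and 9 had an unadjusted p under 0.05 (6.51% of all tested loci were higher with such a p), but 0 met the criterion. Acta2, Myl9 and Tagln had log2 fold changes of 0.61 (SE 0.24), 0.73 (SE 0.31) and 0.53 (SE 0.23). The summed list was 1669 to 2237 FPKM against 2017 to 3673 FPKM, and its median r with Ucp1 was 0.10. By genotype entry the median was 0.24.

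The 8 endothelial genes gave 0 past the criterion, with Vwf, Pecam1 and Cdh5 at log2 fold changes of -0.09 (SE 0.20), 0.10 (SE 0.14) and -0.25 (SE 0.12). Skeletal muscle genes were low, at 1.09 to 16.2 FPKM summed against 9.50 to 14.0 FPKM, with 0 of 4 tested loci past the criterion, Myh2 and Myh4 sharing a locus. Pvalb, Acta1 and Ckm had log2 fold changes of 0.86 (SE 1.49), 1.23 (SE 0.89) and 0.87 (SE 0.81). Of the cardiomyocyte genes 2 were tested and 0 met the criterion, with Actc1 at -1.29 (SE 0.71) and Myh6 at -2.09 (SE 1.60), and Myl3, below the filter, averaged 0.71 FPKM. By genotype entry 0 genes of any of the 12 lists met the criterion, where only 0.463% of all tested loci did. What these tissues contribute to the values of the brown fat genes was not tested.

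Because many adipocyte genes moved with Ucp1, Ucp1 was also set against Adipoq (r 0.73 with Ucp1), the adiponectin gene that all mature adipocytes use. This comparison was chosen after the values had been seen. The ratio of their FPKM was 5.58, 2.70, 3.96, 2.69 and 4.66 in ApoE-/- 1 to 5 and 4.59, 7.64 and 6.56 in NPRC-/-ApoE-/- 1 to 3. The highest ratios were in NPRC-/-ApoE-/- 2 and 3, while NPRC-/-ApoE-/- 1 lay within the ApoE-/- range. The log2 ratio was 0.71 higher by title (1.91 ± 0.47, SD, n = 5, against 2.61 ± 0.38, SD, n = 3), which an exact two-sided permutation test did not separate (p = 0.107, where the smallest possible is 0.036). By genotype entry the difference was -0.09 (exact permutation p = 0.893). ApoE-/- 3, lowest in both genes, had a ratio within the range of its group.

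**Figure D5:**
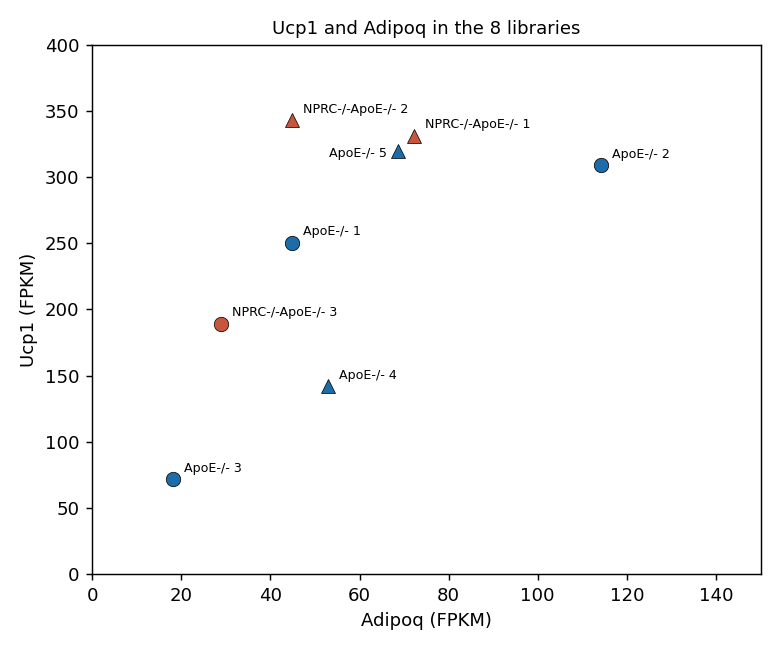
FPKM of Ucp1 (y axis) against FPKM of Adipoq (x axis) in each of the 8 libraries, both axes from 0. Blue points are libraries titled ApoE-/-, red points those titled NPRC-/-ApoE-/-, and triangles mark conflicting labels. ApoE-/- 3 is lowest on both axes, at 71.8 and 18.2 FPKM, and ApoE-/- 1 and NPRC-/-ApoE-/- 2 share an Adipoq level near 44.9 FPKM with Ucp1 at 250.4 and 343 FPKM.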

How the data were processed

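Poly(A) RNA from the entire aorta was sequenced, and the series holds 8 libraries. The study's methods give n = 5 aortas for each genotype, whereas by title 5 libraries were ApoE-/- and 3 were NPRC-/-ApoE-/-. The labels name FastQC, cutadapt 1.9 and GRCm38. Per the study's methods, the authors removed low-quality bases and used HISAT2 for mapping and StringTie for assembly. Judged by its headers and values, the table they deposited holds, for every locus, whole-number counts without normalization and FPKM values. How counts were derived, and whether strand was used, is not given in the sources used here.

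The test covered loci that reached 1 FPKM in 3 or more libraries, in edgeR 4.0.16 under R 4.3.3 (TMM, quasi-likelihood test, Benjamini-Hochberg adjustment over all 20506). As in the study, a locus counted as changed beyond 2-fold (or 0.5-fold) at an unadjusted p under 0.05. SEs and 95% intervals come from the quasi-likelihood F statistic, and log2 CPM values use a prior count of 2. Floors of 3 counts cover counting error only. The series describes the libraries as aortas of separate mice (biological coefficient of variation 0.327). All library pairs differed by more than sampling noise. For a symbol with several loci, the locus with most counts was used, and the locus with annotated transcripts (GENCODE M21) was added after seeing the data. Other gene lists use the transcript locus.

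The genes named are the 10 members, Npr3, in each list the 3 most abundant genes and those past the criterion (at most 4), and the 10 loci most like Ucp1. The members and lists were chosen with earlier results of these data known. Alternatives covered the label, DESeq2 1.42.0, limma 3.58.1 on log2(FPKM + 1) and log2(FPKM + 0.1), the scaling, the filter, the replicate block, each library left out, and summed loci. The fit was tested on simulated data. Promoters come from RefSeq, and exact permutation tests from scipy 1.17.1. All value columns matched a sample (0 unmatched).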

Additional observations from a re-analysis of the deposited data

Results flagged for a closer look

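Of 30 sets of 5 libraries (the larger group under each label, for each gene, mean level or ratio) checked for a value far from the rest, 4 stood out, while chance alone gives 1.5 (about 1 in 20). The sets share libraries and genes, so the 4 cannot be read as an excess over that number. With groups by genotype entry, the library titled ApoE-/- 3 stood apart in Ucp1, at 7.27 log2 CPM against 8.91 for the nearest library. The same library stood apart by genotype entry in the mean level of the brown fat genes at the loci with most counts, at 5.13 log2 CPM against 6.39. By title, it stood apart in Ppargc1a at its transcripts, at 2.62 log2 CPM against 4.46. The fourth value was the Cidea locus on the opposite strand, where the library titled ApoE-/- 2 had 5.60 log2 CPM and the other 4 titled ApoE-/- had none, which the prior count sets to -5.26.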

How the results depend on the processing

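The 9 tested genes gave 0 past the criterion under every alternative at the loci with most counts. With groups by genotype entry, their median log2 fold change turned from 0.46 to -0.17, and Ucp1 (-0.24), Cidea (-0.01), Dio2 (-0.16), Prdm16 at the locus with most counts (-0.37), Elovl3 (-0.38), Cpt1b (-0.17) and Otop1 (-0.23) changed sign. In the 4 libraries with agreeing labels Ucp1 (-0.04) and Otop1 (-0.03) changed sign, and Prdm16 at its transcripts passed the criterion (1.31). With DESeq2, limma with either pseudocount, other scalings, no filter, edgeR's filterByExpr and summed loci, no gene changed sign or call.

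Of the other lists, 8 genes met the criterion, and 0 did by genotype entry, 22 with agreeing labels, 17 without a filter and 16 with filterByExpr. The share of all tested loci that met the criterion fell as well, from 3.47% by title to 0.463% by genotype entry. With agreeing labels, where a lone library formed a group, that share was larger than by title. The changes in these counts with the label therefore cannot be read as particular to the lists. Shares of all loci without a filter and with filterByExpr are not given. Replicate numbers of the titles do not pair the libraries (correlations of the pairs -0.27, -0.13 and -0.01). With the replicate block over 6 libraries 14 of these genes met the criterion, against 13 in the same libraries with no block, and no brown fat gene changed call.

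Leaving out each library in turn gave 0 to 0 brown fat genes past the criterion, a median from 0.27 to 0.65, and 7 to 19 genes of the other lists, the highest without NPRC-/-ApoE-/- 1, and 13 without ApoE-/- 5. Log2 fold changes ranged from -0.0033 to 0.51 for Cidea, -0.12 to 0.66 for Dio2, 0.23 to 0.65 for Ucp1, 0.27 to 0.69 for Otop1, 0.29 to 0.67 for Cpt1b and 0.55 to 0.95 for Elovl3. For the regulators they ranged from 0.10 to 0.90 for Prdm16, 0.20 to 0.95 for Ppargc1a and 0.20 to 0.92 for Ebf2, and at the transcripts from 0.37 to 0.93, -0.14 to 0.26 and 0.21 to 0.83. That of Npr3 ranged from -0.04 to 0.24. Cidea, Ppargc1a at its transcripts (-0.14) and Npr3 turned below 0 without ApoE-/- 3, Dio2 without NPRC-/-ApoE-/- 1, and Ppargc1a at its transcripts also without NPRC-/-ApoE-/- 3 (-0.01). The causes were not tested.

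By Spearman's rho 2 of the 10 loci most like Ucp1 were shared. Counting only bases before the start, 1.55% of promoters held the cyclic AMP response element, 17.8% its short core, 0.779% the EBF motif and 12.4% the TATA box. Zic1 lay below the filter and had too few counts for a fold change.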

Other observations

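The table held a second locus named for Cidea, on the strand opposite to the gene and over none of its exons. It had 3295 counts in the library titled ApoE-/- 2, 2724 in NPRC-/-ApoE-/- 1 and 2444 in NPRC-/-ApoE-/- 3, and 0 counts in each of the other 5. The libraries with counts did not follow the level of Cidea itself, as ApoE-/- 5 was the second highest for Cidea, at 80.7 FPKM, and had none there. Neither label separates the libraries with counts from those without.

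Prdm16 was named at 9 loci, of which 8 were tested, and the locus with the highest mean level was not the one with most counts. It lay on the opposite strand of chromosome 4 (154417749 to 154462755), with a mean of 4.05 FPKM against 1.38 FPKM at the annotated transcripts. Ppargc1a was named at 6 loci, of which 3 were tested.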
